A study of Mus musculus with 6 samples.

Results

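The interferon-stimulated genes described here are 39 genes taken from a list of symbols (Ifit1, Isg15, Irf7, Mx1, Gbp2 and others of the same kind) out of 24984 genes in the count tables. All 39 were listed and all 39 passed the filter on low counts, so none is left out below. Bulk RNA sequencing measured them in subcutaneous fat from the groin (inguinal white adipose tissue) of mice, in 3 wild-type libraries (labelled WT) and 3 Mpst knockout libraries. Both genotypes had been given a high-fat diet (HFD), so no comparison with another diet is possible. MPST is a sulfurtransferase that makes hydrogen sulfide from a cysteine breakdown product. The sources used here do not give the allele, strain, sex or age, and the labels do not say whether replicates are separate animals. The p-values therefore rest on the variation among these 6 libraries alone, some or all of which may be technical.

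Interferons are secreted cytokines that cells release after sensing viral nucleic acid or their own misplaced DNA and RNA. Type I interferon binds the receptor IFNAR and acts through the kinases JAK1 and TYK2 and a transcription factor complex with STAT2 and IRF9, which binds the interferon-stimulated response element (ISRE) in promoters. Interferon gamma binds the receptor IFNGR and acts on promoters through the gamma-activated sequence (GAS). In adipose tissue these genes are expressed by adipocytes, vascular and stromal cells and by resident leukocytes.

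The elements themselves can be read in the promoters, from 250 bases before the transcript start up to the start. RefSeq promoter sequences on GRCm38.p6, the assembly behind mm10, matched 30 of the 39 members by symbol. An ISRE core, searched as GAAA, any 2 bases and GAAA again, or on the other strand as TTTC, any 2 bases and TTTC, was found upstream of 13 of these 30 genes, or 34.2% of their 38 promoters, against 2.98% of all 32851 promoters of the same length. A GAS element, searched as TTCNNNGAA, which reads the same on both strands, was found upstream of 8 of the 30, or 21.1% of their promoters, against 7.02% of all promoters. Both were present in 3 genes, Bst2, Gbp7 and Igtp, and in Bst2 they overlapped. The first set below shows the ISRE, with its letters in capitals, in 3 genes that stood highest in a single wild-type library and differed little otherwise: Ifit1 (chr19:34640759-34640858, plus strand), Ifit3 (chr19:34583362-34583461, plus strand) and Isg15 (chr4:156200830-156200929, minus strand). Isg15 carries 3 overlapping matches, printed as a single run of capitals, and Ifit1 and Ifit3 carry 2 each.
Ifit1: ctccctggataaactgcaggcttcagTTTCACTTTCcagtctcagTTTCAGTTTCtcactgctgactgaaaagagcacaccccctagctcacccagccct
Ifit3: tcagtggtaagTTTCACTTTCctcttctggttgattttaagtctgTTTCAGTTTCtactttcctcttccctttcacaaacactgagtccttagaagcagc
Isg15: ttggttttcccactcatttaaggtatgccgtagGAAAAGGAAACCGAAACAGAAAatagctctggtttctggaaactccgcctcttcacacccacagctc

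The second set shows the ISRE in 3 genes that were higher in the knockout once that library was left out, each with a single match: Oas3 (chr5:120777680-120777779, minus strand), Rsad2 (chr12:26456518-26456617, minus strand) and Trim30a (chr7:104465194-104465293, minus strand). That library was left out for being high in most members, so this grouping is a description.
Oas3: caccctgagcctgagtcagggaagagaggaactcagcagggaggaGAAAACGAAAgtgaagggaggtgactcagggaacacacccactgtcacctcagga
Rsad2: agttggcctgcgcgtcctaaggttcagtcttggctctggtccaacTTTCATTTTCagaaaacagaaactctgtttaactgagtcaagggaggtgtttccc
Trim30a: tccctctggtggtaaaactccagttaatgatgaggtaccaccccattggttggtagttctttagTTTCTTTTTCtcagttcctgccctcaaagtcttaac

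The third set shows the ISRE of 2 GTPase genes and of Bst2: Gbp7 (chr3:142530236-142530335, plus strand), Igtp (chr11:58199456-58199555, plus strand) and Bst2 (chr8:71537542-71537641, minus strand). In that library Gbp7 and Igtp were 1.80 and 2.14 times the mean of the other wild-type libraries. Bst2, at 0.916 times, did not stand high there. Bst2 carries 2 overlapping matches, and capitals mark the ISRE alone in this set, the end of the overlapping GAS match of Bst2 being within them.
Gbp7: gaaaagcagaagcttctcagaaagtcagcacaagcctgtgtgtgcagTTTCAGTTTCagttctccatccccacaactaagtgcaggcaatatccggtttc
Igtp: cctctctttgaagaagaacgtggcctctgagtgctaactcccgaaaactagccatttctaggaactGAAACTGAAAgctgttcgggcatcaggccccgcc
Bst2: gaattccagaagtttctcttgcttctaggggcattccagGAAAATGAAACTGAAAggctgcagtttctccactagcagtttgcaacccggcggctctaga

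The last set has GAS matches in capitals in the transcription factor genes Irf1 (chr11:53769878-53769977, plus strand) and Irf8 (chr8:120736159-120736258, plus strand), the latter with 2 matches. A match is a description of letters and was not tested for binding.
Irf1: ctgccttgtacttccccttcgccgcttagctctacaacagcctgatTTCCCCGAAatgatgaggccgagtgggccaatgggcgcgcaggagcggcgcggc
Irf8: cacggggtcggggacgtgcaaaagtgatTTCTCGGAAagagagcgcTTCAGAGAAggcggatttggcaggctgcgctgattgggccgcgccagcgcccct

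**Figure D1:**
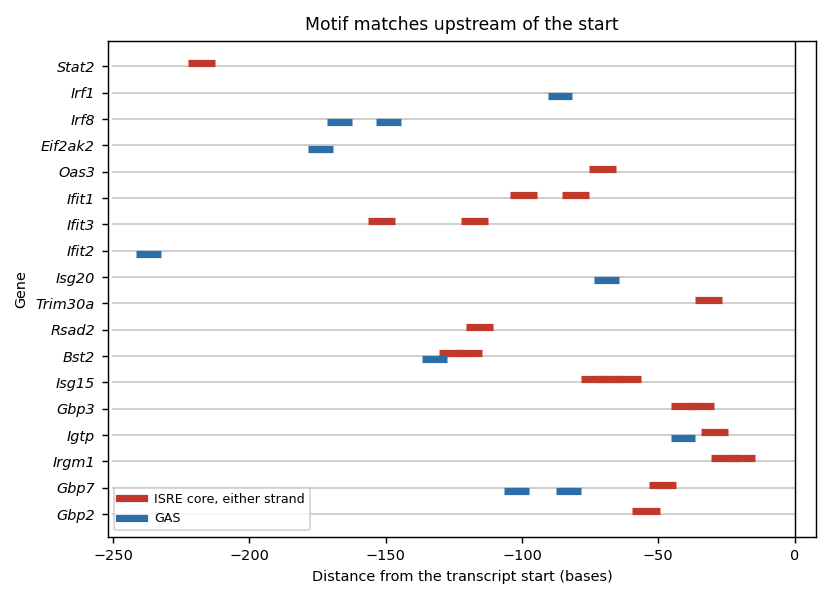
Matches to the ISRE core (red) and to the GAS element (blue) in the 250 bases before the transcript start, for the members with at least 1 match; the x axis is the distance from the start in bases. The ISRE matches of Igtp, Irgm1, Trim30a, Gbp2, Gbp3, Gbp7, Isg15 and Oas3 begin within 78 bases of the start, and that of Stat2 begins at 222 bases.

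Sequencing depth was 17394489 to 21576075 counts in genes for the wild-type libraries and 8054560 to 22458630 for the knockout libraries, knockout replicate 1 being the shallowest. The members held 12637 to 50892 of these counts per library. Mpst was 75.4 to 84.7 CPM (each count divided by the normalised total of its library and put on a common scale) in wild type and 0.357 to 0.44 CPM in knockout, so every library matched its label. Summed CPM over 12 adipocyte genes was 59490 to 70250 in wild type and 39730 to 48620 in knockout. The sum is weighted to abundant genes such as Fabp4 (mean 32389 against 24556 CPM) and Cfd (9704 against 2323 CPM). Of the 12, 3 were called lower (Cfd, Retn and Lipe) and 0 higher, against 2.65% and 4.76% of all tested genes. The 9 not called included Adipoq, Plin1, Pparg and Fabp4. Over 10 skeletal muscle genes the sum was 829 CPM in the second wild-type library and 1967 CPM in the third knockout library, against 36.3 to 141 CPM elsewhere.

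Wild-type replicate 3 stood apart in these genes, and not in these alone. For each pair of replicates, squared differences in counts were set against the variance of counting alone. This used genes with at least 50 counts in the pair, scaled by total counts. The median of this variance ratio was 23.1 and 19.9 for the pairs of wild-type replicate 3 with replicates 1 and 2. For the pair of replicates 1 and 2 it was 5.58. Such a ratio rises with depth. Wild-type replicate 3 was the highest of the 6 libraries for 28 of the 39 members (71.8%), against 23.1% of all 14065 tested genes. In 22 members (56.4%) it was at least 2-fold above the mean of wild-type replicates 1 and 2, against 2.91% of all tested genes. The median ratio was 2.15 over the members and 1.005 over all tested genes, with a range over the members of 0.443 (Irf8) to 5.49 (Oas3). Relative to the wild-type mean, the members' median log2 CPM lay at −0.39, −0.37 and 0.74 for wild-type libraries in the order of their numbers, and at −0.24, −0.06 and 0.23 for the knockout. The spread was correspondingly wider in wild type. For the members the median SD of log2 CPM was 0.69 (wild type) and 0.18 (knockout), against 0.23 and 0.17 for all tested genes. The SD was larger in wild type for 35 of 39 members (89.7%), against 64.6% of all tested genes. This library was also the lowest of the 6 in summed macrophage markers, at 1223 CPM. The same held for conventional dendritic cells (34.7 CPM), neutrophils (9.47), B and plasma cells (8.86) and fibroblasts and progenitors (3794). It held as well for endothelial cells (1514) and lymphatic and lymph node stroma (9.70). For T and NK cells, plasmacytoid dendritic cells, adipocytes and skeletal muscle another library was lowest. The comparison of genotypes is therefore given for each member with and without wild-type replicate 3.

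**Figure D2:**
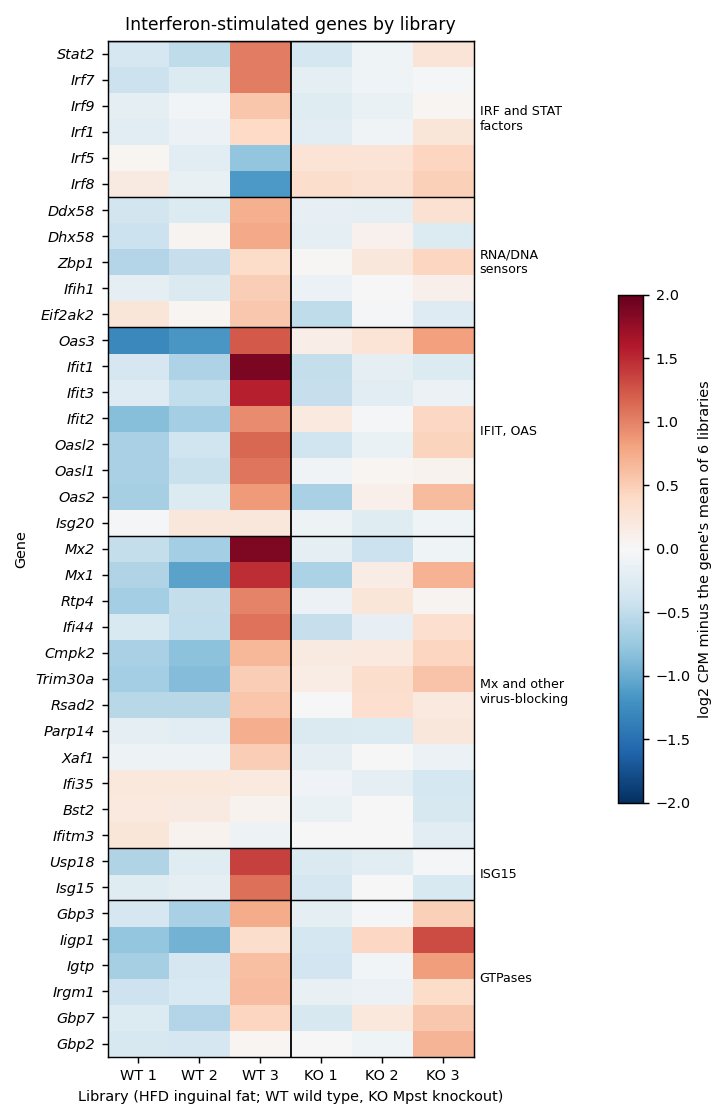
Heat map of log2 CPM minus the gene's mean over 6 libraries, with the 39 members as rows, grouped by role, and the libraries as columns. Wild-type replicate 3 is the darkest red in most rows, Irf5 and Irf8 are bluest there, and Iigp1 is reddest in knockout replicate 3.

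With all 6 libraries, none of the 39 members passed the comparison of knockout with wild type. Adjusted p lay between 0.0636 and 0.990 (edgeR's quasi-likelihood test, Benjamini-Hochberg over 14065 genes), and at an unadjusted p under 0.05 there were 2 higher and 3 lower members. DESeq2 called 0 higher and 2 lower and limma-voom 0 in either direction. Over all tested genes 7.41% were called, 4.76% higher and 2.65% lower. The median log2 fold change of the members was −0.14, with 15 above and 24 below 0, against 0.01 over all tested genes. The knockout libraries lay all above the wild-type libraries for 2 members (5.13%, against 17.8% of tested genes) and all below for 4 (10.3%, against 15.5%), while 33.3% of tested genes separated in either direction.

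Wild-type replicate 3 was set aside because it stood high in these same members, so leaving it out raises knockout over wild type in most of them by construction. The values without it, here and for each gene below, are a description, and nothing is read from setting them against all genes. Their adjusted p is likewise given as a description, not as a test of the genotypes. Without it, 7 members passed as higher and 1 as lower. The higher ones were Trim30a, Cmpk2, Rsad2, Ifit2, Rtp4, Zbp1 and Oas3, and the lower one was Ifi35. They make up 17.9% and 2.56% of the members, against 10.1% and 8.22% of the 14199 genes tested in that fit. The median log2 fold change of the members moved to 0.37, with 34 of 39 above 0, against 0.03 for the genes tested in both fits. The direction turned in 19 members. All 3 knockout libraries lay above both remaining wild-type libraries for 19 members (48.7%), against 27.1% of all tested genes. With 2 wild-type libraries left, this comparison rests on little replication.

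**Figure D3:**
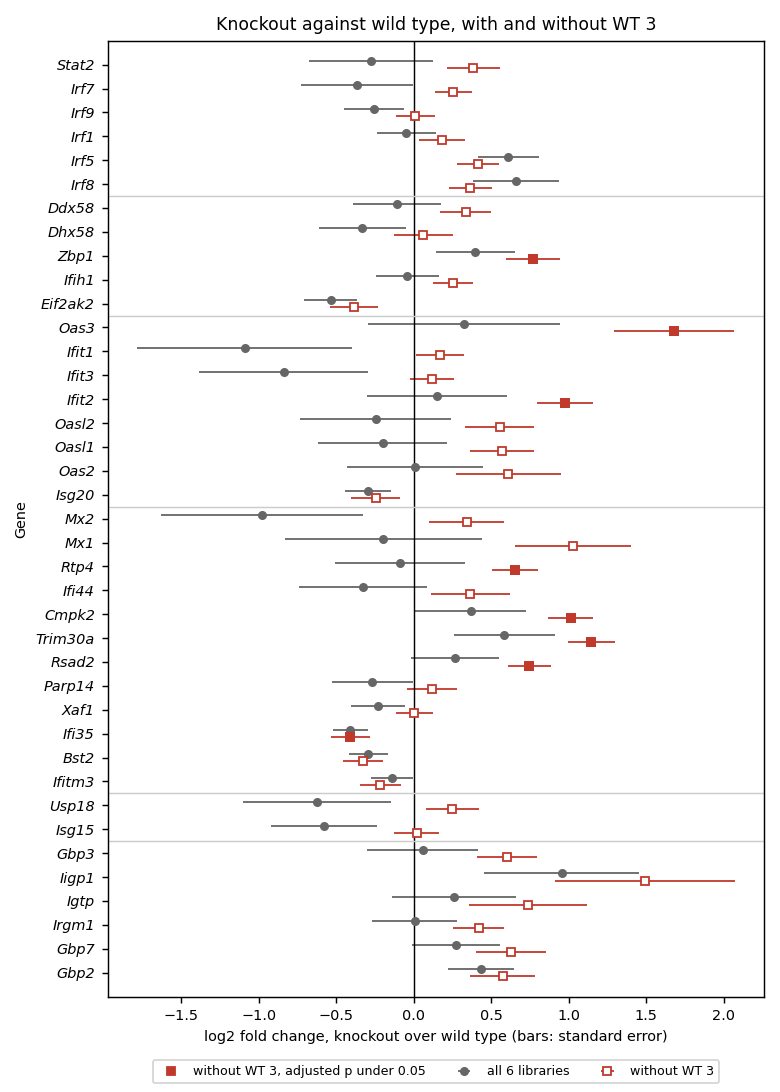
Log2 fold change of knockout over wild type for each member with its standard error, from all 6 libraries (grey circles) and without wild-type replicate 3 (red squares, filled where adjusted p is under 0.05). Grey circles scatter around 0 with long bars, and most red squares lie to their right with shorter bars, the exceptions including Ifi35, Bst2 and Irf8.

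Among the transcription factors, Irf7, the factor that amplifies type I interferon production, stood at 43.2, 48.5 and 118.9 CPM in the wild-type libraries (always in the order of replicates 1, 2 and 3) and at 51.0, 54.9 and 57.6 CPM in the knockout libraries. The knockout values were close together and lay between the 2 lower wild-type values and the highest. Its log2 fold change was −0.37 (SE 0.36; adjusted p = 0.553), and 0.26 (SE 0.12, adjusted p = 0.161) without wild-type replicate 3. Stat2, a component of the complex that binds the ISRE, stood at 32.2, 28.5 and 82.3 CPM in wild type and 31.7, 38.0 and 48.2 CPM in knockout (−0.28 on the log2 scale, adjusted p = 0.696, and 0.39, adjusted p = 0.138, without wild-type replicate 3). Its partner Irf9 had a log2 fold change of −0.26 (adjusted p = 0.423), and of 0.0096 (SE 0.13, adjusted p = 0.968) without that library. Irf1, which interferon gamma induces strongly, stood at 75.0, 80.8 and 116.7 CPM against 75.7, 83.6 and 104.5 CPM (−0.05, adjusted p = 0.901, and 0.18, adjusted p = 0.418, without it).

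Irf5 and Irf8, factors of myeloid and B cells, ran the other way. Irf5 stood at 32.2, 27.0 and 18.1 CPM in wild type and 37.8, 37.7 and 42.3 CPM in knockout. Wild-type replicate 3 was the lowest library, and the groups did not overlap. With all libraries it differed by 0.61 on the log2 scale (SE 0.20; adjusted p = 0.0869). Irf5 passed without wild-type replicate 1, at a log2 fold change of 0.81 (adjusted p = 0.0491), and was at 0.42 (adjusted p = 0.0534) without wild-type replicate 3. Irf8 stood at 42.8, 34.1 and 17.0 CPM against 48.3, 47.1 and 52.8 CPM (log2 fold change 0.66, SE 0.28, adjusted p = 0.164). Wild-type replicate 3 was again the lowest library, and without it the value was 0.37 (adjusted p = 0.0862). In the same libraries 22 macrophage markers summed to 2403, 2056 and 1223 CPM in wild type and 3454, 3885 and 3386 CPM in knockout. Of the 21 tested, 11 rose and none fell (16 and 0 without wild-type replicate 3). Over all tested genes 4.76% were called higher and 2.65% lower (10.1% and 8.22% without wild-type replicate 3). Fewer cells of a type and less RNA per cell cannot be told apart in bulk tissue, and the part of macrophage content in these values was not tested.

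**Figure D4:**
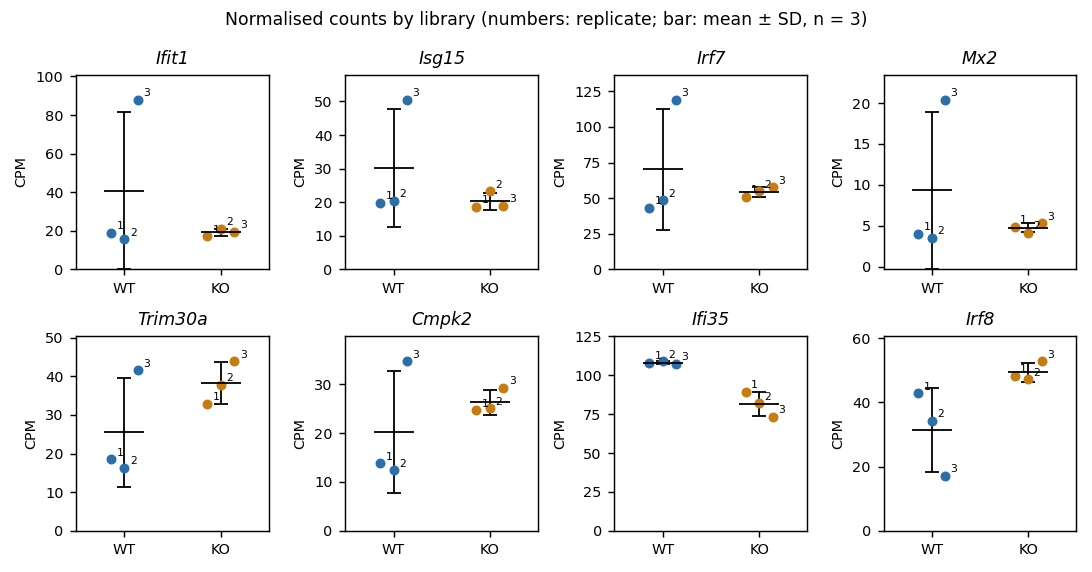
CPM in each library for 8 members on linear axes, with the replicate number beside each point and the mean ± SD (n = 3) in black. Wild-type replicate 3 is the highest wild-type point for Ifit1, Isg15, Irf7, Mx2, Trim30a and Cmpk2 and the lowest for Irf8, while the wild-type points of Ifi35 nearly coincide, at 107.3 to 109 CPM.

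The sensors recognise foreign or misplaced nucleic acid. Eif2ak2, which encodes the double-stranded RNA kinase PKR, stood at 34.3, 29.8 and 42.2 CPM in wild type and 20.4, 28.4 and 24.3 CPM in knockout. Every knockout library was below every wild-type library. The difference was −0.54 on the log2 scale (SE 0.17; adjusted p = 0.0865). Eif2ak2 passed with DESeq2 and in the fit with the trend on GC content and length taken out, while without wild-type replicate 3 it was −0.38 (adjusted p = 0.108). Zbp1, a sensor of Z-form nucleic acid, stood at 8.76, 9.60 and 16.9 CPM against 13.3, 15.3 and 17.8 CPM. It did not pass with all libraries (log2 fold change 0.40, adjusted p = 0.346) and rose 1.70-fold without wild-type replicate 3 (SE 0.18 on the log2 scale, adjusted p = 0.0171). The RNA helicase genes Ddx58 (RIG-I), Ifih1 (MDA5) and Dhx58 (LGP2) had log2 fold changes of −0.11, −0.04 and −0.33, and of 0.33, 0.25 and 0.064 without that library, none past the threshold.

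The IFIT proteins bind viral RNA, and Ifit1 had the lowest fold change of all members. It stood at 18.9, 15.5 and 87.8 CPM in wild type and 17.0, 20.9 and 19.6 CPM in knockout. A single wild-type library was high, and the remaining 5 lay between 15.5 and 20.9 CPM. Its log2 fold change was −1.09 (SE 0.69; adjusted p = 0.362), and 0.17 (SE 0.16, adjusted p = 0.479) without that library. Ifit3 had the same shape, at 36.3, 31.0 and 127.6 CPM against 31.5, 37.5 and 40.0 CPM (−0.84, adjusted p = 0.367, and 0.12, adjusted p = 0.589, without it). Ifit2 had another shape, at 8.27, 9.36 and 28.7 CPM in wild type and 17.2, 14.7 and 19.9 CPM in knockout. Its knockout values lay above wild-type replicates 1 and 2 and below replicate 3, and without replicate 3 it rose 1.97-fold (SE 0.18 on the log2 scale, adjusted p = 0.00844), against a log2 fold change of 0.15 (adjusted p = 0.860) with it. Whether Ifit2 differed from Ifit1 in its response was not tested. These genes lie together on chromosome 19 (GRCm38), Ifit2 from 34550694 to 34576419, Ifit3 from 34583531 to 34588731 and Ifit1 from 34640871 to 34650009, all on the plus strand.

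The OAS enzymes make the second messenger that activates RNase L. Oas3 was rare, at 0.674, 0.729 and 3.85 CPM in wild type and 1.79, 1.98 and 2.88 CPM in knockout. It rose 3.21-fold without wild-type replicate 3 (SE 0.39 on the log2 scale, adjusted p = 0.0180), against a log2 fold change of 0.32 (adjusted p = 0.773) with it. The values of wild-type replicates 1 and 2, the whole wild-type side of that refit, rest on 11 and 12 counts. In knockout replicate 1 the value rests on 15 counts. Oas2 stood at 12.6, 16.4 and 36.0 CPM against 12.8, 21.2 and 30.9 CPM, so that within the knockout its highest and lowest libraries also lay far apart (log2 fold change 0.01, adjusted p = 0.990, and 0.61, adjusted p = 0.253, without wild-type replicate 3). Oasl1 and Oasl2 had log2 fold changes of −0.20 and −0.24, and of 0.57 and 0.56 without wild-type replicate 3 (adjusted p = 0.0788 and 0.108). Isg20, an exonuclease, was the member of this group with the smallest p. It stood at 13.5, 16.1 and 16.1 CPM against 12.8, 11.6 and 13.0 CPM (log2 fold change −0.29, SE 0.15, adjusted p = 0.236, and −0.24, adjusted p = 0.311, without wild-type replicate 3), and the groups did not overlap.

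Among the other virus-blocking genes the strongest rise without wild-type replicate 3 was that of Trim30a, a TRIM family protein that restrains Toll-like receptor signalling. Leaving out that library raises most members by construction, so the rises in this paragraph are a description. Trim30a stood at 18.5, 16.3 and 41.6 CPM in wild type and 32.9, 37.9 and 43.9 CPM in knockout. All 3 knockout libraries were above wild-type replicates 1 and 2, and replicate 3 lay among them. With all libraries it differed by 0.59 on the log2 scale (SE 0.33; adjusted p = 0.282), and the gene rose 2.21-fold without replicate 3 (SE 0.15 on the log2 scale, adjusted p = 0.00286). Cmpk2, a mitochondrial nucleotide kinase, stood at 13.8, 12.4 and 34.7 CPM against 24.7, 25.1 and 29.2 CPM and rose 2.02-fold without replicate 3 (adjusted p = 0.00357), against a log2 fold change of 0.37 (adjusted p = 0.545) with it. Its neighbour Rsad2 encodes viperin, which blocks viral RNA synthesis. Rsad2 stood at 20.9, 20.9 and 45.1 CPM against 30.6, 38.8 and 35.1 CPM and rose 1.68-fold without replicate 3 (adjusted p = 0.00821), against 0.27 on the log2 scale (adjusted p = 0.583) with it. The pair lies on chromosome 12, Rsad2 from 26442746 to 26456452 on the minus strand and Cmpk2 from 26469204 to 26479837 on the plus strand. Rtp4, a regulator of interferon signalling, rose 1.57-fold in the same refit (adjusted p = 0.0156), from 18.9 and 21.7 CPM in wild-type replicates 1 and 2, while replicate 3 was at 60.5 CPM and the knockout at 27.9, 35.9 and 31.4 CPM. With all libraries its log2 fold change was −0.09 (adjusted p = 0.917).

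The Mx genes encode dynamin-like GTPases that trap viral particles, and both were low. Mx2 stood at 4.04, 3.52 and 20.4 CPM in wild type and 4.89, 4.18 and 5.30 CPM in knockout, again with 1 high library (log2 fold change −0.98, adjusted p = 0.372, and 0.34, adjusted p = 0.347, without it). Mx1 stood at 2.45, 1.76 and 10.3 CPM against 2.38, 4.13 and 5.98 CPM, with a log2 fold change of −0.19 (adjusted p = 0.870), and of 1.03 (SE 0.38, adjusted p = 0.0817) without replicate 3. Xaf1, Ifi44 and Parp14 had log2 fold changes of −0.23, −0.33 and −0.27, and of 0.0046, 0.37 and 0.12 in the same refit, with adjusted p from 0.345 to 0.984.

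Ifi35, Bst2 and Ifitm3 did not share the high values of wild-type replicate 3. Ifi35, which binds the interferon-induced protein NMI, had the smallest p of all members. It stood at 108, 109 and 107.3 CPM in wild type and 89.2, 81.9 and 73.5 CPM in knockout, and every knockout library was lower. With all libraries the difference was −0.41 on the log2 scale (SE 0.11; adjusted p = 0.0636). Ifi35 fell by 0.41 without wild-type replicate 3 (adjusted p = 0.0457) and passed also with DESeq2. Bst2, the membrane tether that holds budding virus, stood at 213.8, 210.7 and 194.4 CPM against 169.6, 186.6 and 149 CPM (log2 fold change −0.29, SE 0.13, adjusted p = 0.174, and −0.33, adjusted p = 0.105, without replicate 3). Bst2 also marks plasmacytoid dendritic cells. Their marker Siglech was at 0.742 to 2.21 CPM in wild type and 0.976 to 1.19 CPM in knockout. Of 8 listed markers of these cells 6 were tested, 4 with a log2 fold change above 0 and 2, Siglech among them, below. None was called, and the part of these cells in the Bst2 values was not tested. Ifitm3, which blocks virus entry at endosomes, stood at 273.7, 244.2 and 215.9 CPM against 233, 233.4 and 201 CPM (−0.14 on the log2 scale, adjusted p = 0.550, and −0.21, adjusted p = 0.274, without replicate 3). For Bst2 and Ifitm3 the sign turned in the fit with the trend on GC content and length taken out, to 0.15 and 0.33.

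Isg15 encodes a ubiquitin-like modifier and Usp18 the protease that removes it and also blocks IFNAR signalling. Isg15 stood at 19.8, 20.5 and 50.4 CPM in wild type and 18.6, 23.3 and 18.9 CPM in knockout. Apart from wild-type replicate 3, all libraries fell between 18.6 and 23.3 CPM. Its log2 fold change was −0.58 (SE 0.34; adjusted p = 0.312), and 0.020 (SE 0.15, adjusted p = 0.938) without that library. Usp18 stood at 10.2, 13.0 and 39.9 CPM against 12.6, 13.3 and 15.1 CPM (−0.62, adjusted p = 0.441, and 0.25, adjusted p = 0.340, without it).

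The interferon-inducible GTPases, which attack the vacuoles of intracellular microbes and respond strongly to interferon gamma, did not have wild-type replicate 3 as their highest library in most cases. That library was still above the mean of wild-type replicates 1 and 2 for all 6, by 1.29 to 2.35 times. The median ratio was 2.05, against 2.15 over all members, and 3 of the 6 were at least 2-fold. Knockout replicate 3 was highest for 4 of the 6 (Gbp2, Gbp7, Iigp1 and Igtp) and wild-type replicate 3 for Gbp3 and Irgm1, while over all tested genes knockout replicate 3 was highest in 21% and the difference between the groups of genes was not tested. Iigp1 had the largest fold change of all members. It stood at 26.8, 23.9 and 58.6 CPM in wild type and 36.1, 61.2 and 114 CPM in knockout. The values overlapped, and within each genotype the highest library was more than 2-fold above the lowest. Its log2 fold change was 0.96 (SE 0.50; adjusted p = 0.265), and 1.49 (SE 0.58, adjusted p = 0.175) without wild-type replicate 3. Gbp2 stood at 77.5, 76.7 and 99.5 CPM against 97.4, 90.8 and 154.7 CPM (log2 fold change 0.44, SE 0.21, adjusted p = 0.218, and 0.57, adjusted p = 0.0866, without wild-type replicate 3). Irgm1 had a log2 fold change of 0.01, with the sign turning under several settings, and Gbp3 0.06, Igtp 0.26 and Gbp7 0.27. All 6 had positive values without wild-type replicate 3, with Irgm1 at 0.42, Gbp3 at 0.60, Gbp7 at 0.63 and Igtp at 0.74, and none passed. Gbp3 had the smallest adjusted p there, at 0.0547. Knockout replicate 3 was also the library highest in muscle transcripts, and the part of that in these values was not tested.

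On a per-length scale (CPM per kilobase of annotated exon), Ifitm3 was the most abundant member, at a mean of 361 in wild type and 328 in knockout, followed by Bst2 at 228 and 187 and Ifi35 at 62.6 and 47.2. In wild type Isg15 (40.0), Ifit3 (37.2) and Gbp2 (33.6) came next, and in knockout Gbp2 (45.4), Isg15 (26.8) and Irf1 with Igtp (22.1 and 21.7). The wild-type places of Isg15 and Ifit3 rest on replicate 3, and on this spread they could not be ordered against Gbp2. Oas3 was the rarest, at 0.248 and 0.314.

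The interferons were almost undetected. Of 21 interferon genes, 15 had no count in any library, among them Ifnb1 and Ifna1, which at the depth of these libraries allows up to 0.127 to 0.357 CPM (3 counts, counting error only). Leaving aside Ifng, the interferon genes held 1 to 4 counts per library. Ifng had 3, 3 and 11 counts in wild type and 0, 13 and 14 in knockout, or 0.184, 0.182 and 0.510 CPM against 0, 0.572 and 0.594 CPM (0.58 on the log2 scale, adjusted p = 0.646, and 1.30, adjusted p = 0.306, without wild-type replicate 3).

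None of the 5 tested interferon receptor genes passed, with log2 fold changes from −0.06 to 0.37, and from −0.19 to 0.32 without wild-type replicate 3, where none passed either. Ifnar1 stood at 75.3, 64.5 and 73.6 CPM against 73.0, 72.4 and 77.7 CPM, and Ifnar2 at 169.6, 170.6 and 125 CPM against 159.9, 153.5 and 132 CPM. Both subunits of the type I receptor overlapped between genotypes. For the interferon gamma receptor, Ifngr1 stood at 193, 290.7 and 306.4 CPM against 252.8, 244 and 269.4 CPM, and Ifngr2 at 59.0, 55.3 and 39.2 CPM against 76.6, 69.0 and 52.6 CPM. Il10rb, shared by interleukin-10 and interferon lambda receptors, stood at 51.3, 59.8 and 62.0 CPM against 66.4, 73.0 and 67.7 CPM. Ifngr1 (−0.04), Ifngr2 (0.37) and Il10rb (0.26) had adjusted p from 0.191 to 0.898, and of these Il10rb alone had no overlap. Ifnlr1, the receptor chain for interferon lambda, was too low to test, with 1 count in each wild-type library and 4, 6 and 13 counts in knockout. Jak1, a kinase that serves both receptors, stood at 128.1, 110.9 and 118.2 CPM against 146.1, 140.3 and 160.5 CPM (0.32 on the log2 scale, adjusted p = 0.117, and 0.32, adjusted p = 0.106, without wild-type replicate 3), with no overlap. Jak2 stood at 41.1, 33.8 and 39.2 CPM against 41.8, 37.4 and 46.0 CPM, Tyk2 at 32.5, 30.6 and 41.6 CPM against 25.5, 30.5 and 45.5 CPM, and Stat3 at 125.8, 128.7 and 123 CPM against 150.8, 137.2 and 116.9 CPM. Their log2 fold changes of 0.13, −0.04 and 0.10 did not pass, nor did those of 0.16, 0.12 and 0.09 without wild-type replicate 3, and all 3 overlapped.

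Of 15 genes that sense nucleic acid upstream of interferon or relay the signal, 2 rose and none fell with all 6 libraries. Over all tested genes 4.76% were called higher and 2.65% lower, which is the background for each all-library count in this paragraph. Lists this short give no result about the pathway as a whole. Tank, an adaptor that binds the kinase TBK1, rose 1.94-fold, from 27.0, 33.2 and 31.9 CPM to 64.1, 59.0 and 55.5 CPM (edgeR, SE 0.13 on the log2 scale, adjusted p = 0.0128). Tlr7, the endosomal receptor for single-stranded RNA, rose 2.33-fold, from 6.31, 5.47 and 4.27 CPM to 10.96, 12.7 and 13.4 CPM (adjusted p = 0.0173). Without wild-type replicate 3 this list had 3 rises and 1 fall of 15, against 10.1% and 8.22% of all genes tested in that fit. Tank and Tlr7 passed there as well, joined by Tlr9 (3.80-fold higher, adjusted p = 0.0404, on 3 to 28 counts per library) and Irf3 (log2 fold change −0.35, adjusted p = 0.0490), both named after their values were seen. With all libraries Tlr9 and Irf3 had adjusted p of 0.0519 and 0.0603. No pathway gene of any list passed with wild-type replicate 2 or any 1 knockout library left out, nor without the 2 libraries highest in muscle transcripts. Of 9 inhibitors of interferon signalling, Ptpn6, the leukocyte phosphatase SHP-1, rose 1.76-fold (13.7 ± 3.61 against 24.02 ± 2.60 CPM, SD, n = 3, edgeR adjusted p = 0.0467) and none fell, as also without wild-type replicate 3 (1.54-fold, adjusted p = 0.0207). Tlr7 and Ptpn6 are leukocyte genes, the macrophage markers were higher in the same libraries (3386 to 3885 against 1223 to 2403 CPM), and their part in these values was not tested.

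A wider list of 76 tested interferon-inducible genes that are not members had 6 rises and 1 fall with all libraries, at a median log2 fold change of 0.07. Without wild-type replicate 3 it had 14 rises and 4 falls, at a median of 0.32 with 56 of 76 above 0. Over all 14199 genes tested in that fit 10.1% were called higher and 8.22% lower. That library was left out for being high in genes of this kind, so these counts are a description. With all libraries the risers were Ifi205, Epsti1, Lgals3bp, Ifi207, Cxcl10 and Slfn2, the last 3 and the fall named after their values were seen. Ifi205, a DNA-binding PYHIN protein, rose 2.02-fold (13.8 ± 2.23 against 28.1 ± 2.64 CPM, SD, n = 3, edgeR adjusted p = 0.0154), Epsti1 1.995-fold and Lgals3bp, a secreted glycoprotein, 1.52-fold. Cxcl10, the chemokine that draws CXCR3-bearing T cells, rose 2.45-fold, from 3.55, 3.34 and 6.17 CPM to 8.34, 9.85 and 13.8 CPM (adjusted p = 0.0370). Ifi27, which encodes a small membrane protein, was 1.52-fold lower (862.5 ± 78.0 against 568.3 ± 67.1 CPM, SD, n = 3, edgeR adjusted p = 0.0452). The 7.89% called higher with all libraries compares with 4.76% of all tested genes, and the 1 fall of 76 with 2.65%. Wild-type replicate 3 was the highest library for 34 of these 76 genes, against 23.1% of all tested genes. The median ratio of that library to the mean of replicates 1 and 2 was 1.40 over the 76, against 1.005 over all tested genes. Over 14 T and NK cell markers the summed level was 31.7 to 39.4 CPM in wild type and 50.5 to 89.4 CPM in knockout, with 1 of 14 genes called, and its part in the Cxcl10 value was not tested.

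**Figure D5:**
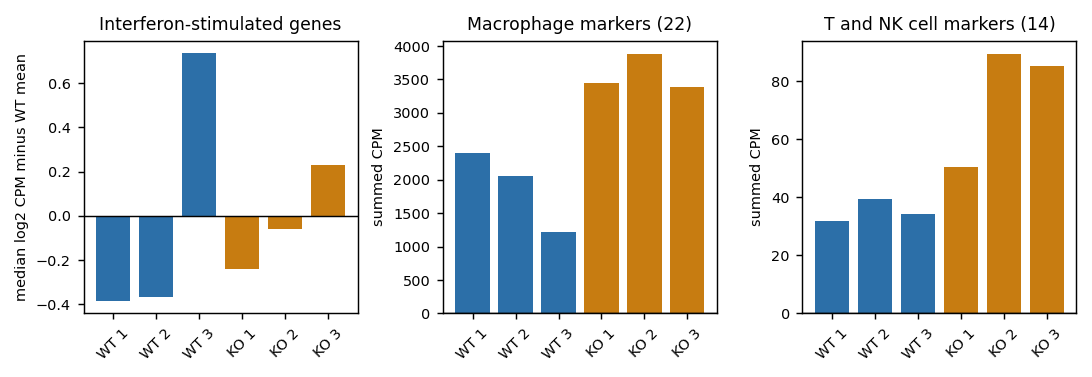
Per library, the median log2 CPM of the 39 members minus the wild-type mean (left), and the summed CPM of 22 macrophage markers (middle) and of 14 T and NK cell markers (right), wild type in blue and knockout in orange. Wild-type replicate 3 is highest on the left, at 0.74, and lowest for the macrophage markers, at 1223 CPM.

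The members with an ISRE match did not separate cleanly from those without. Over the 13 with a match the median ratio of wild-type replicate 3 to the mean of replicates 1 and 2 was 2.35, with 9 at least 2-fold, and over the 17 without a match it was 1.59, with 7 at least 2-fold. By another measure the order was the opposite, since that library was the highest of all 6 for 8 of the 13 and for 13 of the 17. The median log2 fold change without wild-type replicate 3 was 0.57 and 0.26. Irf7, Oasl2 and Ifi44 were among the 7 at least 2-fold higher in that library with no match in the window, and Bst2, with 2 matches, was not. These are descriptions of the letters upstream of annotated starts, with no test.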

How the data were processed

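RNA of inguinal white adipose tissue was sequenced in 3 libraries labelled wild type and 3 labelled Mpst knockout, all on a high-fat diet. Per the labels' protocols, TruSeq RNA v2 libraries, which do not mark strand, were read single-end. The submitters' processing notes name HISAT2 2.1.0, HTSeq 0.13.5, DESeq2 1.26 and mm10, while the sources used here name no annotation or counter settings. What the authors deposited is a raw count per gene symbol. Lines for reads in no feature (8.85% to 14.7% of gene, featureless and ambiguous reads together) and ambiguous reads (1.63% to 1.83%) were left out. Because strand is not marked and the handling of reads shared by similar genes is not stated, counts of close paralogs (the Ifit, Oas, Gbp and Mx families, Trim30a, Ifi205, Ifi207) are uncertain.

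Genotypes were compared with edgeR 4.0.16 under R 4.3.3 (filterByExpr, 14065 of 24984 genes; trimmed mean of M-values; robust quasi-likelihood F test, no covariates; Benjamini-Hochberg over all tested genes, called under 0.05). Standard errors were derived from each gene's log2 ratio and its F statistic (the ratio over root F). CPM uses normalised library sizes, and log2 CPM for medians and SDs a prior count of 2. The common biological coefficient of variation was 19.5%. The test was run on simulated counts first. Exon lengths, positions and GC content came from GENCODE M21 on GRCm38, matched by symbol. In replicate pairs the squared difference was 3.27 to 23.1 times the variance of counting alone, so none was counted as a copy. These are medians over genes with at least 50 counts in the pair. The highest values, 23.1 and 19.9, were those of the pairs with wild-type replicate 3.

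The members and lists were chosen with earlier results of these data known. Genes given library by library are the member with the smallest p in each role group, those with the highest mean CPM and the most extreme fold changes, the interferon receptors, the Janus kinases and Stat3, and up to 3 called genes per pathway list. All other members given by library, such as Irf7, Ifit2, Trim30a and Cmpk2, were named after their values were seen. One gene of the pathway is not reported here. Alternatives were other scalings, DESeq2 1.42.0, limma-voom (limma 3.58.1), other filters, the replicate number as a block, no robust estimation, thinning to the smallest library, a trend on GC content and length (13906 genes) taken out, and each library left out. Leaving out the 2 libraries highest in muscle transcripts was added after seeing the data.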

Additional observations from a re-analysis of the deposited data

How the results depend on the processing

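No member was called in the comparison of all 6 libraries, and which members pass depended on wild-type replicate 3. When single libraries were dropped, members called ranged from 0 to 7 higher and 0 to 1 lower, and their median log2 fold change from −0.29 to 0.37, against −0.14. It was 0.37 without wild-type replicate 3 and below 0 without any other library. Other interferon pathway genes called ranged from 0 to 19 higher and 0 to 5 lower (9 and 1 with all libraries), and all genes from 0 to 1434 higher and 1 to 1167 lower (669 and 373). Without wild-type replicate 2 or any knockout library, no member and no pathway gene was called. Members called were 0 higher and 2 lower with DESeq2 (Eif2ak2, Ifi35), and 0 and 1 with the GC and length trend taken out (Eif2ak2). Genes called over the whole table were 1074 and 894 with DESeq2 and 419 and 241 with the GC and length trend taken out. Pathway genes called lower were 5 with DESeq2, 2 with a mean of at least 10 CPM and 2 without robust estimation, and 0 with size factors by relative log expression and with the GC and length trend taken out. Without the 2 libraries highest in muscle transcripts, pathway calls were 0 and 0 and all calls 0 and 1. The cause of these changes was not tested. The fits that leave out libraries also hold fewer samples, and the part of that was not tested either.

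The replicate numbers were not taken to pair the libraries. Deviations of same-numbered libraries from their group means correlated at 0.171, −0.0994 and 0.303, and not every library correlated best with its own number. With the number as a replicate block, 2 members were called higher (Gbp2, Iigp1) and 1 lower (Ifi35), pathway genes 15 and 5, and all genes 1387 and 1289.

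The sign of uncalled members turned in several fits, as log2 fold change. With the GC and length trend taken out Ifit2 was −0.034, Oas2 −0.0034, Ifitm3 0.33, Bst2 0.15, Gbp3 −0.023 and Irgm1 −0.12. Oas2 and Irgm1 were −0.013 and −0.0072 with DESeq2 and −0.0043 and −0.0069 with size factors by relative log expression. Thinning gave Ifih1 0.0064 and Irgm1 −0.0093. Mx1 and Rtp4 were 0.18 and 0.10 with limma-voom and 0.065 and 0.095 with the replicate block. Without the 2 libraries highest in muscle transcripts Ifit2 was −0.23, Oas2 −0.50, Oas3 −0.28, Gbp3 −0.42, Gbp7 −0.14, Igtp −0.31 and Irgm1 −0.33. With each library left out the ranges were Ddx58 −0.29 to 0.33, Dhx58 −0.56 to 0.064, Gbp3 −0.19 to 0.60, Ifi44 −0.59 to 0.37, Ifih1 −0.18 to 0.25, Ifit1 −1.48 to 0.17, Ifit2 −0.14 to 0.97, Ifit3 −1.17 to 0.12, Igtp −0.17 to 0.74, Irf1 −0.19 to 0.18, Irf7 −0.61 to 0.26, Irf9 −0.39 to 0.0096, Irgm1 −0.18 to 0.42, Isg15 −0.80 to 0.020, Mx1 −0.59 to 1.03, Mx2 −1.36 to 0.34, Oas2 −0.34 to 0.61, Oas3 −0.046 to 1.68, Oasl1 −0.48 to 0.57, Oasl2 −0.54 to 0.56, Parp14 −0.46 to 0.12, Rtp4 −0.37 to 0.65, Stat2 −0.54 to 0.39, Usp18 −0.95 to 0.25 and Xaf1 −0.33 to 0.0046. Depth limits most the members of few counts, such as Oas3 and Mx1. Oas3 had 11 and 12 counts in wild-type replicates 1 and 2 and 15 in knockout replicate 1. Mx1 had 40, 29 and 20 counts in the same libraries.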
